A study of Mus musculus with 24 samples.

Results

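The histone deacetylases (HDACs) of the classical, zinc-dependent family were followed across 4 states of mouse CD4+ T cells. All probes of the array table that stand for Hdac1, Hdac2, Hdac3, Hdac4, Hdac5, Hdac6, Hdac7, Hdac8, Hdac10 or Hdac11 were taken, which gave 10 genes and 13 probes out of 17871 genes on the array. For 8 of the 10 genes the table used the current symbol, and Hdac7 and Hdac4 were found through their gene identifiers under the older names Hdac7a and 4932408F19Rik. Of the 10 genes, 9 were detected (a detection p no higher than 0.02 for some probe on some array) and were tested among 10418 detected genes. The probe of Hdac11 did not reach that level on any of the 24 arrays.

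WT and BAF180-deficient cells were compared as Naïve cells and as Th2 cells, each at rest and after stimulation, with 3 Illumina MouseRef-8 v2 arrays (replicates A, B and C) in each of the 8 groups. BAF180, encoded by Pbrm1, is the bromodomain subunit that distinguishes the PBAF form of the SWI/SNF chromatin remodeling enzyme. The BAF180-deficient mice carried loxP-flanked Pbrm1 alleles and a Cre transgene under the CD4 promoter and enhancer, which acts late in thymocyte development. The labels call all mice Balb/c and 4 to 6 weeks old, whereas the methods of the study describe a different background. Resting Naïve cells were CD4+CD62L+ cells isolated from spleen and lymph nodes with a kit to a stated purity of 95%. Stimulated Naïve cells had spent 24 h on plates coated with anti-CD3 (1 µg/ml) and anti-CD28 (2 µg/ml). Resting Th2 cells had been started on the same coating with IL-4 (10 ng/ml) and an antibody against IFN-γ (10 µg/ml), then grown in IL-2 (100 U/ml). Stimulated Th2 cells were such cultures after 1.5 h with PMA (50 ng/ml) and ionomycin (500 ng/ml). The study's text gives 3 pairs of WT and BAF180-deficient mice as the source of the arrays.

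HDACs remove acetyl groups from lysines of histones and other proteins, a step that generally goes with compacted chromatin and lower transcription. Class I enzymes (Hdac1, Hdac2, Hdac3 and Hdac8) are mostly nuclear, and the first 3 of these work inside corepressor complexes such as Sin3, NuRD, CoREST and NCoR/SMRT. Class IIa proteins (Hdac4, Hdac5, Hdac7) have little catalytic activity of their own, bind MEF2 transcription factors, and leave the nucleus with 14-3-3 proteins once protein kinase D or CaM kinases have phosphorylated them, which occurs after T cell receptor signaling. Class IIb (Hdac6, Hdac10) acts largely in the cytoplasm on substrates such as tubulin and polyamines, and Hdac11 is the single class IV member.

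Levels are given as log2 intensities after background correction and quantile normalization, so a level is relative to the other probes of its array and cannot be compared between probes. A gene was read from its brightest probe, and a difference was called when its limma p, adjusted by Benjamini-Hochberg over all 14246 tested probes, was below 0.05. Between 8047 and 10689 probes were detected per array, and replicate arrays correlated with r between 0.949 and 0.989. Pbrm1 was lower in BAF180-deficient cells by 1.48 on the log2 scale over the 4 states (standard error 0.11, limma adjusted p = 3.49e-07). It was called in 3 states and not in resting Naïve cells, where Pbrm1 differed by -1.01 (limma adjusted p = 0.121), and whether its probe lies in the deleted exon was not determined. All 7 CD4 T cell markers (Cd3e, Cd3d, Cd3g, Cd4, Cd28, Lck and Zap70) were detected on every array. In these bulk samples, fewer cells of a type and less RNA per cell cannot be told apart.

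Hdac2 and Hdac5 carried the clearest differences between states. Hdac2 was highest after stimulation in both cell types and rose from resting Naïve to resting Th2 cells as well, whereas Hdac5 fell on stimulation of Naïve cells and fell further on stimulation of Th2 cells. Hdac3 rose moderately in stimulated Naïve cells, and Hdac1 and Hdac8 were lower in stimulated than in resting Th2 cells among WT arrays. No HDAC gene was called between WT and BAF180-deficient cells in any state.

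The sequences printed here are the probes of Hdac5, the only member with 3 of them, and the promoters of Hdac2 and Hdac5, the members that moved most. The levels come from the probes, and no difference rests on a promoter sequence. Each Hdac5 probe is a 50-base oligonucleotide in the sense orientation, named here by its first base in the transcript record that the array annotation gives for it. The record of the probe at base 3463 differs from that of the probes at bases 2288 and 3073, so these positions are not on a single scale. The probe at base 3463 was the brightest and crosses an exon junction, with its last 3 bases, in capitals, in the following exon.
Hdac5 probe at base 2288: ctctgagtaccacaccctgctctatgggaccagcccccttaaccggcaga
Hdac5 probe at base 3073: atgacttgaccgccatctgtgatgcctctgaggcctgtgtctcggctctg
Hdac5 probe at base 3463: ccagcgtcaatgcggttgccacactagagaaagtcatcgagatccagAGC

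The promoters are the 250 bases before the annotated start in RefSeq (GRCm38.p6), whose table held entries for 7 of the 10 members. Hdac2 lies on the plus strand (chr10:36974294-36974543) and Hdac5 on the minus strand (chr11:102230173-102230422), and both are printed in the direction of transcription. Capitals mark matches, on either strand, to 5 motifs, none of which overlapped here. The GC box was searched as GGGCGG and the CCAAT box by the letters of its name. The E-box was searched as CACGTG and the AP-1 element as TGANTCA. The MEF2 consensus, which allows a choice of bases at most positions, was added after the Hdac5 sequence had been read.
Hdac2: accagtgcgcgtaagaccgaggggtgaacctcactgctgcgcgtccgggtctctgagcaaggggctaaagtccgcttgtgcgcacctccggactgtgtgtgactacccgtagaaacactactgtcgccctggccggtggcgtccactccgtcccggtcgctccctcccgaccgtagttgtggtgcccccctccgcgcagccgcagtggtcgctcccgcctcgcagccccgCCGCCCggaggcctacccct
Hdac5: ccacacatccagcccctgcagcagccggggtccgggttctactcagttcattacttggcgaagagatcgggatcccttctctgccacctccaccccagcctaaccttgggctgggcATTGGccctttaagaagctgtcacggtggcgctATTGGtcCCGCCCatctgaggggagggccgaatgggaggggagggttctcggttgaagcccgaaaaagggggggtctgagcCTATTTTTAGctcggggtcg

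The Hdac2 window held 1 GC box, beginning 20 bases before the start, and no other match. The Hdac5 window held 1 GC box, 2 CCAAT boxes and 1 match to the MEF2 consensus, which begins 20 bases before the start. Of 32851 promoter windows of this length, 32.7% held a GC box, 33.9% a CCAAT box, 6.02% the E-box, 6.75% the AP-1 element and 2.92% the MEF2 consensus. G and C made up 68.8% of the Hdac2 window and 60.8% of the Hdac5 window, against a median of 52.4% over all windows. A match describes the letters and does not show that a factor binds there.

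Among the class I genes, Hdac2, which encodes a catalytic subunit of Sin3, NuRD and CoREST complexes, rose with stimulation. In WT resting Naïve cells its log2 level was 8.39, 8.16 and 8.57 on replicates A, B and C, and in WT stimulated Naïve cells it was 9.37, 10.04 and 10.08. In BAF180-deficient cells the same levels were 7.98, 8.76 and 8.31 at rest and 9.56, 10.11 and 9.80 after stimulation. Every stimulated array lay above every resting array in both genotypes. The difference was 1.46 in WT (standard error 0.23, limma adjusted p = 2.65e-05), which is 2.75-fold, and 1.47 in BAF180-deficient cells (standard error 0.23, limma adjusted p = 2.47e-05).

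Hdac2 was also higher in resting Th2 than in resting Naïve cells. Its log2 level in resting Th2 cells was 9.43, 9.26 and 9.23 in WT and 9.06, 9.32 and 9.34 in BAF180-deficient cells, again above all resting Naïve arrays of the genotype. The differences were 0.93 in WT (limma adjusted p = 0.00328) and 0.89 in BAF180-deficient cells (limma adjusted p = 0.00472), each with a standard error of 0.23. After PMA and ionomycin the Th2 arrays read 9.78, 9.86 and 10.45 in WT and 10.06, 9.86 and 10.46 in BAF180-deficient cells. The differences from resting Th2 cells were 0.72 in WT (limma adjusted p = 0.0219) and 0.89 in BAF180-deficient cells (limma adjusted p = 0.00603), which are 1.65-fold and 1.85-fold.

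Ordered by their WT means, Hdac2 levels were 8.37 ± 0.20 (SD, n = 3) in resting Naïve, 9.31 ± 0.11 in resting Th2, 9.83 ± 0.40 in stimulated Naïve and 10.03 ± 0.36 in stimulated Th2 cells. The arrays of the last 2 states overlapped, as did those of resting Th2 and stimulated Naïve cells. The rise in stimulated Th2 cells was not called in WT without replicate C of the stimulated arrays (0.52, limma adjusted p = 0.135), without replicate B or C of the WT resting Th2 arrays, nor in either genotype when the arrays were not normalized to each other (1.09 in WT, limma adjusted p = 0.229, and 0.32 in BAF180-deficient cells, limma adjusted p = 0.745).

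**Figure D1:**
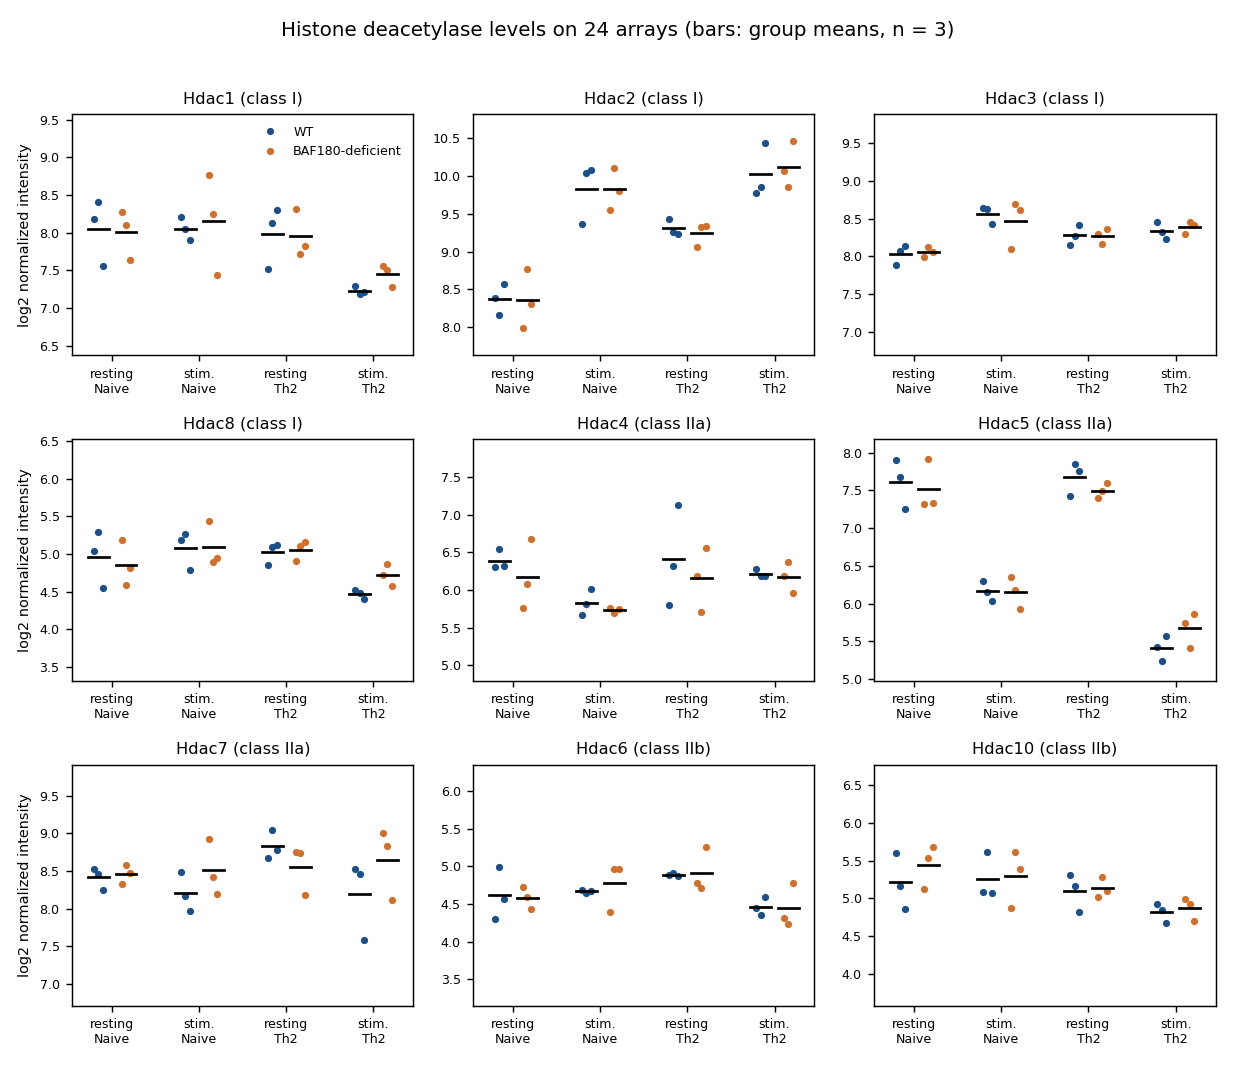
Each panel shows 1 gene, with the 4 cell states on the x axis and log2 normalized intensity on the y axis, over a span of equal height in every panel; points are single arrays (WT and BAF180-deficient side by side) and bars are means of 3 arrays. Hdac2 climbs from 8.37 in WT resting Naïve to 10.03 in WT stimulated Th2 cells, Hdac5 drops from 7.68 in WT resting to 5.41 in WT stimulated Th2 cells, and the arrays of the 2 genotypes overlap for every gene and state shown except Hdac8 in stimulated Th2 cells.

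Hdac3, the catalytic subunit of the NCoR/SMRT complexes, moved in the same direction as Hdac2 in Naïve cells but by less. WT resting Naïve arrays read 7.88, 8.07 and 8.14 and WT stimulated Naïve arrays 8.64, 8.62 and 8.43, with no overlap. The difference was 0.53 (standard error 0.14, limma adjusted p = 0.00353), or 1.45-fold. In BAF180-deficient cells resting arrays read 7.98, 8.13 and 8.06 and stimulated arrays 8.09, 8.69 and 8.61, so that replicate A after stimulation lay within the resting range. The difference there was 0.41 (standard error 0.14, limma adjusted p = 0.0225), and it was not called without replicate B of the stimulated arrays (0.29, limma adjusted p = 0.138), without replicate C of the stimulated arrays (0.33), without replicate A of the resting arrays (0.37), or when only the 6 arrays of the comparison were fitted (0.42, limma adjusted p = 0.124). Resting Th2 cells differed from resting Naïve cells in Hdac3 by 0.25 in WT and 0.22 in BAF180-deficient cells, and stimulated from resting Th2 cells by 0.06 and 0.11, none of which was called.

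Hdac1, the close relative of Hdac2 in the same complexes, did not follow it. Its log2 level averaged 8.05 ± 0.44 (SD, n = 3) in WT resting Naïve and 8.05 ± 0.15 in WT stimulated Naïve cells, a difference of 0.00063 with a 95% interval from -0.57 to 0.58. In WT resting Th2 cells the arrays read 7.52, 8.13 and 8.30, and in WT stimulated Th2 cells 7.29, 7.18 and 7.21. All stimulated arrays were below the resting ones, and the difference of -0.76 was called (standard error 0.28, limma adjusted p = 0.0459). In BAF180-deficient cells resting Th2 arrays read 8.31, 7.72 and 7.82 and stimulated arrays 7.56, 7.51 and 7.28, and the difference of -0.50 was not called (limma adjusted p = 0.209). The change did not differ between the genotypes beyond its error, with an interaction of 0.26 and a 95% interval from -0.56 to 1.07. The WT call was just inside the threshold and was lost in 14 of the 24 analyses that left out 1 array each, among them the one without replicate C of the WT resting Th2 arrays (-0.60, limma adjusted p = 0.184). It was also lost without the detection filter (limma adjusted p = 0.0983), without background correction (0.0524) and without normalization between arrays (-0.48). On that last scale Hdac1 was instead called lower in BAF180-deficient cells (-1.12, limma adjusted p = 0.0126), where the median gene moved by -0.24.

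Hdac8, a class I enzyme that works outside the large corepressor complexes and deacetylates cohesin, was dim. It was detected on 18 of the 24 arrays and on none of the WT stimulated Th2 arrays. WT resting Th2 arrays read 4.85, 5.09 and 5.12 and WT stimulated Th2 arrays, none of them well above background, 4.53, 4.48 and 4.40. The difference of -0.55 was called (limma adjusted p = 0.0349). With the lowest detected signal of each stimulated array as the upper limit of its level, the mean of Hdac8 was at least 1.28-fold lower in the stimulated cells. That ratio of group means carries no error. In BAF180-deficient cells resting Th2 arrays read 4.91, 5.11 and 5.16 and stimulated Th2 arrays 4.72, 4.86 and 4.58, and the difference of -0.34 was not called (limma adjusted p = 0.229). The interaction was 0.22, with a 95% interval from -0.34 to 0.78. In WT the call was lost without replicate C of the WT resting Th2 arrays, replicate B of the same group, or any 1 of the 3 WT stimulated Th2 arrays, where adjusted p reached 0.107, and without the detection filter (limma adjusted p = 0.0604). Without normalization between arrays Hdac8 was called lower in both genotypes (-0.54 in WT and -0.72 in BAF180-deficient cells).

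Of the class IIa genes, Hdac5 gave the largest differences of any member. In WT resting Naïve cells its brightest probe read 7.90, 7.68 and 7.25 and in WT stimulated Naïve cells 6.30, 6.16 and 6.03. BAF180-deficient arrays read 7.32, 7.92 and 7.33 at rest and 6.35, 6.18 and 5.93 after stimulation. All stimulated arrays were below all resting arrays of their genotype. The difference was -1.45 in WT (standard error 0.19, limma adjusted p = 2.46e-06), which leaves 0.366 of the resting level, and -1.37 in BAF180-deficient cells (standard error 0.19, limma adjusted p = 5.39e-06).

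Hdac5 did not differ between the resting states beyond its error and fell most in Th2 cells. WT resting Th2 arrays read 7.43, 7.85 and 7.76, and the difference from resting Naïve cells was 0.07, with a 95% interval from -0.32 to 0.46. After 1.5 h of PMA and ionomycin the WT arrays read 5.42, 5.24 and 5.57, a difference of -2.27 (standard error 0.19, limma adjusted p = 1.49e-08), which leaves 0.207 of the resting level. BAF180-deficient Th2 arrays read 7.40, 7.49 and 7.60 at rest and 5.74, 5.41 and 5.86 after stimulation, a difference of -1.83 (limma adjusted p = 3.52e-07). The arrays of stimulated Th2 cells were below those of stimulated Naïve cells in both genotypes, although the stimuli and times of these 2 states differ. The fall in Th2 cells was 0.44 smaller in BAF180-deficient cells, with a 95% interval from -0.11 to 0.99, and this interaction was not called (limma adjusted p = 0.9999).

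The other 2 Hdac5 probes allowed the same comparisons within the gene. The probe at base 3073, detected on 23 arrays, differed by -1.56 in WT and -1.52 in BAF180-deficient cells on stimulation of Naïve cells, and by -2.0 and -1.71 on stimulation of Th2 cells, all called with limma adjusted p between 2.81e-06 and 3.61e-05. Between the resting states it read -0.42 in WT and -0.44 in BAF180-deficient cells, neither called, where the brightest probe read 0.07 and -0.02. The probe at base 2288 was detected on 8 arrays only, its group means lay between 4.36 and 4.65, and none of its differences was called.

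**Figure D2:**
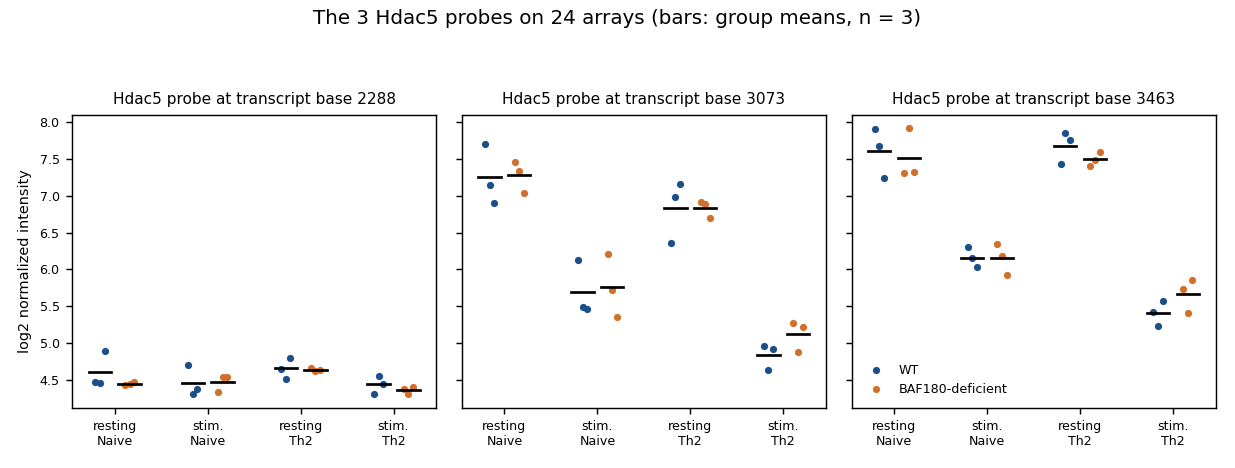
Each panel shows 1 of the 3 Hdac5 probes, named by its first base in its own transcript record, with the 4 cell states on the x axis and log2 normalized intensity on a shared y axis; points are single arrays and bars are means of 3 arrays. The probes at bases 3073 and 3463 are low in stimulated Naïve cells and lowest in stimulated Th2 cells, and the probe at base 2288 stays between 4.30 and 4.89.

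Array brightness and the scaling between arrays touch every comparison with resting Naïve cells. The 90th percentile of raw intensity over the tested probes was 184 to 328 on the 6 resting Naïve arrays and 306 to 907 on the other 18, with overlapping ranges. Without normalization between arrays, an alternative chosen after seeing the data, the median gene moved by 0.26 in WT and 0.30 in BAF180-deficient cells from resting to stimulated Naïve cells, and by 0.36 and 0.64 from resting Naïve to resting Th2 cells. On that scale, where a difference is read against the shift of the median gene, Hdac5 differed by -0.51 in WT (limma adjusted p = 0.250) and -0.46 in BAF180-deficient cells (limma adjusted p = 0.293) on stimulation of Naïve cells and was not called, while Hdac2 and Hdac3 stayed called, at 2.50 and 1.54 in WT. Hdac1 and Hdac7 were called higher there as well, by 1.03 and 0.84 in WT and by 1.20 and 1.13 in BAF180-deficient cells. Between the resting states Hdac5 was called higher in Th2 cells, by 0.95 in WT and 1.26 in BAF180-deficient cells. The fall of Hdac5 in Th2 cells kept its call on that scale (-2.04 in WT and -2.37 in BAF180-deficient cells).

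Markers of other cells moved with the same comparisons. All 4 tested myeloid markers (Lyz2, Csf1r, Cd14 and Fcer1g) fell from resting to stimulated Naïve cells in both genotypes, with a median difference of -3.87 in WT, and their summed raw intensity was 647 to 3140 on WT resting Naïve arrays and 184 to 227 on WT stimulated Naïve arrays. From resting Naïve to resting Th2 cells the same 4 fell too, with a median of -4.29 in WT and -4.11 in BAF180-deficient cells, to summed intensities of 166 to 197 and 172 to 241. Of the 5 B cell markers, 2 fell in each genotype on stimulation of Naïve cells, and 2 in WT and 3 in BAF180-deficient cells between the resting states. Of the 2 tested NK markers 1 fell in both comparisons in each genotype. Cd8b1, the tested CD8 T cell marker, was called lower in BAF180-deficient cells only, by -1.42 and -1.40, with -0.77 and -0.59 in WT. All 5 tested cycling markers rose from resting Naïve to stimulated Naïve and to resting Th2 cells in both genotypes, and 4 of the 5 fell from resting to stimulated Th2 cells in WT (2 in BAF180-deficient cells). The part of these cells in the HDAC differences was not tested. Between resting and stimulated Th2 cells no myeloid, B cell, NK or CD8 T cell marker was called. Over all tested genes, 23.3% were called higher and 21.9% lower on stimulation of WT Naïve cells, and 17.9% and 17.6% between the WT resting states. In BAF180-deficient cells these shares were 22.1% and 21.3%, and 18.2% and 17.5%. On stimulation of Th2 cells 15.9% of genes were called lower in WT and 15.4% in BAF180-deficient cells.

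Hdac4 and Hdac7, the other class IIa members, were not called in any comparison between states with all arrays and the settings above. Hdac4 read 6.31, 6.55 and 6.32 in WT resting Naïve and 5.66, 5.81 and 6.01 in WT stimulated Naïve cells, without overlap. Its difference of -0.56 had a limma adjusted p of 0.0911, and that in BAF180-deficient cells was -0.44 (limma adjusted p = 0.197). With only the 6 WT Naïve arrays fitted, the WT difference was called (-0.53, limma adjusted p = 0.0324), as it was without replicate C of the WT resting Th2 arrays (limma adjusted p = 0.0393). Without normalization between arrays it turned to 0.18, with the median gene at 0.26. WT resting Th2 arrays spread from 5.80 to 7.13 for this gene, the widest group of any member.

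Hdac7, a class IIa repressor known from thymocyte selection, read 8.67, 9.04 and 8.78 in WT resting Th2 and 8.52, 8.46 and 7.58 in WT stimulated Th2 cells. The difference of -0.64 had a limma adjusted p of 0.0695, or 0.0205 with the replicate letter within each genotype as a block. Without replicate C of the WT stimulated Th2 arrays, the lowest, the difference was -0.34 (limma adjusted p = 0.393), and without normalization between arrays it was -0.30. It was called without replicate A of the same group (limma adjusted p = 0.0440) and without replicate C of the BAF180-deficient stimulated Th2 arrays. In BAF180-deficient cells resting Th2 arrays read 8.76, 8.74 and 8.18 and stimulated arrays 9.0, 8.83 and 8.11, a difference of 0.09. The interaction of 0.73 was the largest of any member and was not called, with a 95% interval from -0.02 to 1.49 (limma adjusted p = 0.9999). This interval comes from the fit without pairs, and a block for each pair within a state was not fitted for interactions. Without replicate C of the WT stimulated Th2 arrays the interaction was 0.43, and without replicate C of the BAF180-deficient ones it was 1.0.

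The class IIb genes were low on these arrays. Hdac10, which deacetylates polyamines, was detected on all 24 arrays with group means between 4.81 and 5.45, and no difference between states was called, the largest being -0.31 between resting Th2 and resting Naïve BAF180-deficient cells. Hdac6, the tubulin deacetylase, was detected on 11 arrays by its brighter probe. That probe was detected on all 6 resting Th2 arrays, at 4.88, 4.91 and 4.87 in WT and 4.77, 4.71 and 5.26 in BAF180-deficient cells. On WT stimulated Th2 arrays it read 4.45, 4.36 and 4.59 and was not detected. Against the lowest detected signal of those arrays its mean was 1.17-fold lower, a ratio of group means that carries no error. The difference of -0.42 was not called (limma adjusted p = 0.113), except with only the 6 WT Th2 arrays fitted (-0.49, limma adjusted p = 0.0443). The second Hdac6 probe, detected on 1 of these 3 arrays, differed by -0.17. In BAF180-deficient Th2 cells the brighter probe differed by -0.47 on stimulation, also not called (limma adjusted p = 0.0768). Without replicate C of the BAF180-deficient stimulated Th2 arrays it was called (-0.63, limma adjusted p = 0.0246). Hdac11, the class IV member, read between 4.18 and 4.47 on every array, below the detection limit throughout, and has only an upper bound here.

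Counted over the 9 tested members, 2 were called higher (Hdac2 and Hdac3) and 1 lower (Hdac5) in WT stimulated against resting Naïve cells, where 23.3% of all tested genes were called higher and 21.9% lower. The BAF180-deficient arrays gave calls for the same 3 genes in the same directions, against 22.1% of genes upward and 21.3% downward. From resting Naïve to resting Th2 cells 1 member was called higher (Hdac2) and 0 lower in each genotype, against 17.9% and 17.6% of genes in WT and 18.2% and 17.5% in BAF180-deficient cells. On stimulation of Th2 cells 1 member was called higher (Hdac2) and 3 lower (Hdac1, Hdac5 and Hdac8) in WT, against 12.5% and 15.9%. In BAF180-deficient cells 1 was higher (Hdac2) and 1 lower (Hdac5), against 11.7% and 15.4%. With 9 members, 1 gene is 11.1% of them, so these counts were near the background of each comparison. The median member difference was 0.04 on stimulation of WT Naïve cells (all genes -0.01), 0.07 from resting Naïve to resting Th2 cells in WT (all genes 0.0020) and -0.42 on stimulation of WT Th2 cells (all genes -0.01).

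**Figure D3:**
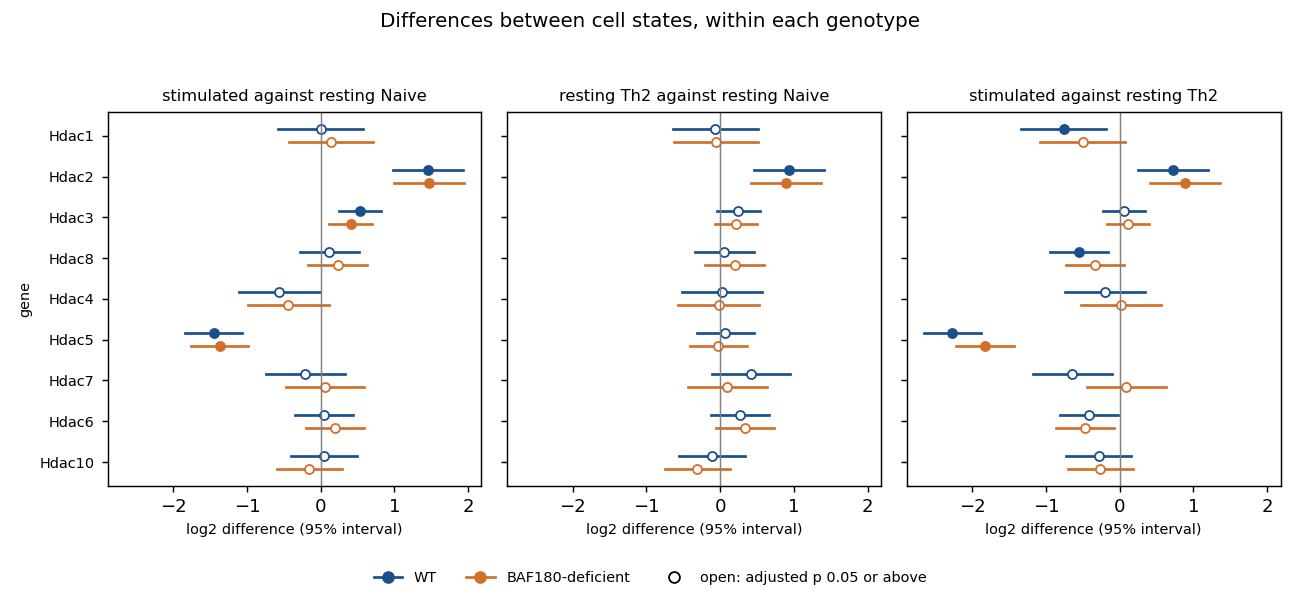
Each panel shows 1 comparison between cell states, with the log2 difference on the x axis and the 9 tested genes on the y axis; circles are estimates for WT and BAF180-deficient cells, lines are 95% intervals, and filled circles have a limma adjusted p below 0.05. Hdac2 lies to the right of 0 in all panels, from 0.72 to 1.47, Hdac5 lies to the left in the 2 stimulation panels, from -2.27 to -1.37, and the intervals of the 2 genotypes overlap for every gene.

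The study asked how loss of BAF180 changes gene expression in these cells, and for the HDAC genes no difference between the genotypes was called in any state. In resting Naïve cells the 9 differences (BAF180-deficient minus WT) ran from -0.22 (Hdac4) to 0.23 (Hdac10), and 0 were called by adjusted p, against 0.106% of genes. The same count by the criteria of the study's methods, applied here to limma's values, was 0, against 0.758% of genes. Those criteria are a Z-ratio beyond 1.5, an FDR below 0.30 and a p below 0.05, together with a mean background-corrected signal above 0, which the correction used here gives for every probe. In stimulated Naïve cells the differences ran from -0.10 (Hdac3) to 0.31 (Hdac7), with 0 called by either rule, against 0.0288% and 0.115% of genes.

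In resting Th2 cells they ran from -0.27 (Hdac7) to 0.04 (Hdac8), with 0 called by either rule, against 0.0384% and 0.106% of genes. In stimulated Th2 cells they ran from -0.05 (Hdac4) to 0.46 (Hdac7), with 0 called by either rule, against 0.0288% and 0.096% of genes. Averaged over the 4 states they ran from -0.16 (Hdac4) to 0.13 (Hdac7), with 0 called by either rule, against 0.374% and 2.44% of genes. This limma fit held no pairs. In each of these 5 comparisons it also gave 0 members an unadjusted p below 0.05, against 7.20%, 2.31%, 3.58%, 2.87% and 8.09% of genes in the order above. Since genes as a whole were rarely called between the genotypes in this fit, these counts of 0 are near the background. The study, with its own normalization and statistics, reported many more genes changed between the genotypes than were called here by either rule.

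The intervals limit how large a difference could be. For single states the 95% intervals of the 9 members reached from -0.81 (Hdac4, resting Th2) to 0.99 (Hdac7, stimulated Th2), so a change of nearly 2-fold in a single state would not always have been seen with 3 arrays a group. These intervals come from the fit without pairs, and with a block for each pair within a state they reached from -0.70 (Hdac4, resting Th2) to 0.75 (Hdac7, stimulated Th2). For the mean of the 4 states they reached from -0.43 (Hdac4) to 0.40 (Hdac7) without pairs. With the block for each pair within a state they reached from -0.38 (Hdac4) to 0.305 (Hdac1). The intervals that follow are from the fit without pairs. Hdac2 differed by 0.00096 on this mean, with an interval from -0.24 to 0.24, and Hdac3 by -0.01, with an interval from -0.15 to 0.14. Hdac5 differed by -0.01, with an interval from -0.20 to 0.19.

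The largest estimate between the genotypes was that of Hdac7 in stimulated Th2 cells, and it was not called. Hdac7 read 8.52, 8.46 and 7.58 in WT and 9.0, 8.83 and 8.11 in BAF180-deficient cells, and the replicate labelled C was the lowest of each genotype. The difference was 0.46 (standard error 0.26, limma adjusted p = 0.9999). Taken pair by pair (A, B and C), BAF180-deficient minus WT gave 0.48, 0.37 and 0.53. The pairs of stimulated Naïve arrays gave 0.44, 0.26 and 0.22 for Hdac7, so the sign was the same in all 6 pairs of the stimulated states. With a block for each pair within a state, a fit added after seeing the data, the standard error was 0.14 and the interval 0.17 to 0.75 in stimulated Th2 cells (limma adjusted p = 0.485). In stimulated Naïve cells that fit gave an interval from 0.02 to 0.60 (limma adjusted p = 0.991). Both intervals leave out 0, and neither difference was called over all genes. Hdac7 was singled out here for its large estimate. The share of all genes with such pairs or such intervals was not computed. In resting Th2 cells the pairs read 0.08, -0.30 and -0.61, and in resting Naïve cells -0.21, 0.12 and 0.22. Hdac8 was not detected in WT stimulated Th2 cells and was detected on 2 of the 3 BAF180-deficient arrays. Its mean there was 1.04-fold above the lowest detected signal of the WT arrays, a ratio that carries no error. The difference of 0.25 was not called (limma adjusted p = 0.9999).

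**Figure D4:**
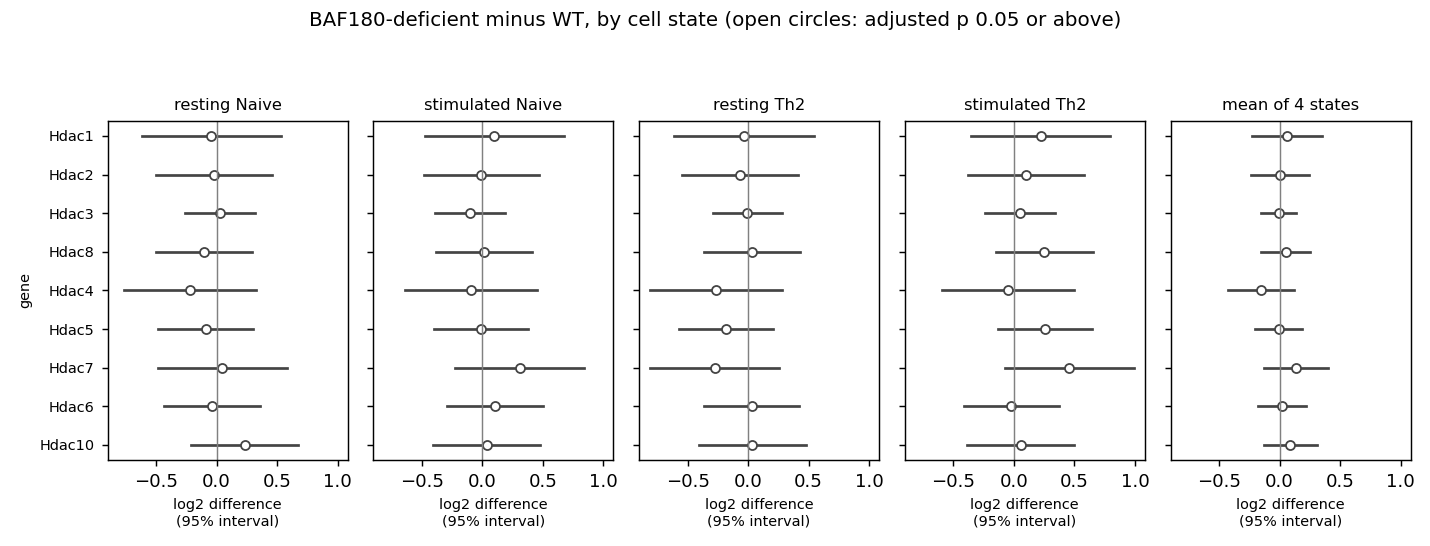
Each panel shows 1 cell state or the mean of the 4 states, with the log2 difference of BAF180-deficient minus WT cells on the x axis and the 9 tested genes on the y axis; circles are estimates, lines are 95% intervals, and open circles have a limma adjusted p of 0.05 or above. Values are from the fit without pairs. All circles are open, and every interval includes 0, from -0.81 at the lowest end to 0.99 at the highest.

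Whether the changes between states depended on BAF180 was tested as an interaction. For stimulation of Naïve cells the 9 interactions ran from -0.20 (Hdac10) to 0.26 (Hdac7), with 0 called, against 0.0096% of genes. For resting Th2 against resting Naïve cells they ran from -0.32 (Hdac7) to 0.14 (Hdac8), with 0 called, against 0.0096%. For stimulation of Th2 cells they ran from -0.05 (Hdac6) to 0.73 (Hdac7), with 0 called, against 0% of genes. In all 3 the limma fit without pairs gave 0 members an unadjusted p below 0.05. All interaction intervals given here come from that fit. Interactions were not fitted with a block for each pair within a state, so their error with pairs is not known.

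The genes whose levels ran most like those of the 3 members with the widest range of group means were found by Pearson's r over the 24 arrays, which share states, genotypes and normalization. For Hdac5 they were Prkd2 (r = 0.975), Selplg (0.971), Rab3d (0.968), Ctdsp2 (0.968) and Cdk19 (0.967). For Hdac2 they were Tmem199 (0.964), Ppat (0.960), Lyar (0.951), Selenoi (0.942) and Ndc1 (0.940), and for Hdac1 they were Cers5 (0.848), Babam1 (0.828), Fto (0.826), Rhot2 (0.807) and Slc39a11 (0.807). Among the members themselves the highest values were 0.780 for Hdac1 with Hdac8 and 0.689 for Hdac2 with Hdac3, and the lowest was -0.771 for Hdac2 with Hdac5. Prkd2, which encodes protein kinase D2, averaged 11.01 ± 0.11 (SD, n = 3) in WT resting Naïve, 9.10 ± 0.32 in stimulated Naïve, 10.94 ± 0.20 in resting Th2 and 7.81 ± 0.09 in stimulated Th2 cells. Its differences were -1.91 on stimulation of WT Naïve cells (limma adjusted p = 3.71e-08) and -3.14 on stimulation of WT Th2 cells (limma adjusted p = 6.77e-11).

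The partners of the HDACs moved in both directions. Over all tested genes, 23.3% rose and 21.9% fell on stimulation of WT Naïve cells, 17.9% and 17.6% from resting Naïve to resting Th2 cells, and 12.5% and 15.9% on stimulation of WT Th2 cells. In BAF180-deficient cells the shares in the same order were 22.1% and 21.3%, 18.2% and 17.5%, and 11.7% and 15.4%. Both sets of shares apply to each list below. Of 19 tested partners and kinases of class IIa HDACs, 3 rose and 9 fell on stimulation of WT Naïve cells, with a median of -0.60. Ywhag (2.07) and Ywhae (0.93), which encode 14-3-3 proteins, rose, and Bcl6 (-2.26), a repressor that recruits HDACs, and Sik1 (-1.95), a salt-inducible kinase, fell. From resting Naïve to resting Th2 cells 4 rose and 8 fell in WT, with the largest falls in Bcl6 (-3.52) and Mef2c (-2.37), a MEF2 factor that B and myeloid cells also express. On stimulation of WT Th2 cells 4 rose and 3 fell, with Camk2d (2.19) and Bcl6 (1.44) rising and Prkd2 (-3.14) and Ywhah (-0.97) falling. In BAF180-deficient cells the counts in the same order were 3 and 9, 2 and 7, and 5 and 3.

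Of 24 tested subunits of class I corepressor complexes, 4 rose and 8 fell on stimulation of WT Naïve cells, with a median of -0.09, against 23.3% and 21.9% of all genes. Rbbp7 (1.30), a histone-binding subunit of Sin3 and NuRD, and Sap30 (0.96), a Sin3 subunit, rose, and Ncor1 (-1.35), the NCoR scaffold, and Mta3 (-1.05), a NuRD subunit, fell. From resting Naïve to resting Th2 cells 4 rose and 6 fell in WT, with Sap30 (1.05), Rbbp7 (0.95), Mta3 (-1.0) and Ncor1 (-0.85) at the ends. On stimulation of WT Th2 cells, where 12.5% of all genes rose and 15.9% fell, 1 subunit rose and 7 fell. Chd4 (0.55), the NuRD ATPase, rose, and Mta3 (-1.29) and Ing1 (-1.27) led the falls. In BAF180-deficient cells the counts were 5 and 6, 2 and 6, and 1 and 3.

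Enzymes that add acetyl groups and proteins that read them were followed as further lists. On stimulation of WT Naïve cells, where 23.3% of all genes rose and 21.9% fell, the acetyltransferases had a median of -0.09 and the readers one of -0.68. Of 13 tested acetyltransferases 1 rose, Hat1 (1.75), which acetylates newly made histones, and 6 fell, led by Kat6b (-1.68) and Ncoa1 (-1.30). Of 8 tested acetyl-lysine readers 1 rose, Baz1a (0.90), and 6 fell, led by Baz2a (-1.81) and Brd1 (-0.85). From resting Naïve to resting Th2 cells 1 acetyltransferase rose and 4 fell, and 0 readers rose and 4 fell. On stimulation of WT Th2 cells, where 12.5% of all genes rose and 15.9% fell, 0 acetyltransferases rose and 4 fell. The falls were led by Ep300 (-1.55), which encodes p300, and Ncoa1 (-0.90). Among the readers Baz1a (1.35) rose and Brd9 (-1.09) fell. In BAF180-deficient cells the acetyltransferase counts were 2 and 6, 1 and 5, and 0 and 2, and the reader counts 1 and 6, 0 and 5, and 1 and 1.

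Of 7 tested deacetylases outside the 10 members, namely 6 sirtuins and Hdac9, Sirt3 (0.65) and Sirt6 (0.52) rose and Sirt7 (-1.12) fell on stimulation of WT Naïve cells, against 23.3% and 21.9% of all genes. Sirt3 (1.06) and Sirt6 (0.47) were also higher in WT resting Th2 than in resting Naïve cells. On stimulation of WT Th2 cells 3 fell, led by Sirt7 (-0.87) and Sirt1 (-0.72), and 0 rose, against 15.9% and 12.5% of all genes. In BAF180-deficient cells the counts were 1 and 1, 1 and 0, and 0 and 3. Hdac9, the remaining class IIa gene, was dim, with group means between 4.54 and 4.79, and was not called in any comparison. No gene of these 5 lists was called by adjusted p between WT and BAF180-deficient cells in any state, nor over the mean of the 4 states. The study, with its own normalization and criteria, names Chd4 as a gene that BAF180 appeared to activate in Th2 cells.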

How the data were processed

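RNA of 24 samples was hybridized to Illumina MouseRef-8 v2 BeadChips. The authors deposited, for 25697 probes, the average bead intensity and a detection p-value from GenomeStudio (version 1.6.0 in the submitters' processing notes), without normalization. The lowest intensity was 25.8 to 30.3 on every array, so background had not been subtracted. The Z-score normalization of the study's methods is not in the deposited intensity values. The number of arrays, 3 a group, limits the precision.

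A probe was tested if any array gave it a detection p no higher than 0.02 (14246 probes, 10418 genes). Current symbols came from Entrez IDs for 16938 probes, from accessions for 7420, from symbols for 465 and from synonyms for 553, and the old symbol stayed for 321. Intensities were background corrected from the detection p-values (offset 16), log2 transformed and quantile normalized with neqc, and 8 group means were fitted with lmFit and eBayes (limma 3.58.1, R 4.3.3), with 16 residual degrees of freedom and 20.3 after moderation. Quantile normalization forces all arrays to 1 distribution, so a change shared by most genes is removed. The Z-ratio, FDR and p criteria of the methods were applied to limma's values, and the statistics named there for replicability and FDR were not run. The fit was also run on simulated arrays drawn independently, with known changes put only into WT stimulated Th2 arrays. That run held no pairs and did not cover the genotype comparisons or interactions.

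The 10 members and all lists were chosen with earlier results of these data known. The text names the members, their 5 most similar genes for the 3 members of widest range, and of each list the 2 called genes with the largest change in each direction in WT. Lists were corepressors, class IIa partners, acetyltransferases, readers, other deacetylases and cell markers. Alternatives were a replicate block, a block for each pair within a state (added after seeing the data), other backgrounds and scalings, other filters, the mean of a gene's probes, fits of fewer arrays and leaving out each array.

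The study had 3 pairs of mice. Deviations of WT and BAF180-deficient arrays of the same letter correlated by 0.301 (A), 0.136 (B) and 0.516 (C) over the 4 states. Within single states 2 of 12 such correlations were at or below 0.1. Letters were read as pairs between the genotypes, but the main fit, its counts and its interactions held no pair term. Pairs entered only the fits with a block and the differences taken pair by pair. Between states the correlations were -0.0092 to 0.427, with 6 of 18 at or below 0.1, and letters were not read as pairs there. Between stimulated and resting Th2 cells they were 0.023 (A), 0.383 (B) and 0.376 (C) in WT. In BAF180-deficient Th2 cells they were 0.355, 0.290 and 0.427. Pairs of Th2 arrays across states thus entered only through the replicate block.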

Additional observations from a re-analysis of the deposited data

How the results depend on the processing

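The 14 HDAC differences called between states kept their direction under every alternative. Without background correction 13 stayed called, without the detection filter 12, with only the arrays of the comparison 13, and with Z-score normalization or the mean of a gene's probes all 14. Leaving out 1 array at a time kept 311 of 336 calls. In WT stimulated against resting Th2 cells, 1 to 4 members were called in those fits and 2 without the detection filter, against 4. In WT resting Th2 against resting Naïve cells 2 were called with Z-score normalization (Hdac3 added), 0 by the criteria of the methods and 5 without normalization between arrays, against 1. In BAF180-deficient cells those counts were 2, 0 and 8, against 1. Without normalization between arrays the median gene itself moved by 0.64 in that comparison. The share of all genes called was not computed for these alternatives, so their counts cannot be set against a background. By the criteria of the methods 5 of the 14 calls remained. These were Hdac2 and Hdac5 on stimulation of WT Naïve cells, Hdac2 on stimulation of BAF180-deficient Naïve cells, and Hdac5 in 2 comparisons. The latter were stimulation of Th2 cells in each genotype. Without normalization between arrays, an alternative chosen after seeing the data, 9 of the 14 calls remained, and 5 members were called on stimulation of BAF180-deficient Naïve cells and 2 on stimulation of WT Th2 cells. The cause of these changes was not tested. All genotype and interaction counts stayed at 0.

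With the replicate letter as a block, set within each genotype for comparisons between states, the 14 calls stayed. Hdac7 was added in WT stimulated against resting Th2 cells (-0.64, limma adjusted p = 0.0205), so that 5 members were called there. That block links letters across states, although letters were not read as pairs between states. In WT, deviations of stimulated and resting Th2 arrays of the same letter correlated by 0.023 (A), 0.383 (B) and 0.376 (C). With the letter as a block across both genotypes, no genotype call changed. With a block for each pair within a state, added after seeing the data, the genotype counts stayed at 0. Among the uncalled differences 18 of 112 turned sign with Z-score normalization and 46 of 112 without normalization between arrays, among them Hdac4 on stimulation of WT Naïve cells (0.18). A slide block was not run, because the table names no slides. Depth limits Hdac8 and Hdac6, which were near background, and Hdac11, which was not detected.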
